A study of Mus musculus with 21 samples.

Results

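Skp1a and 9 genes of the Fbxw family (Fbxw13, Fbxw14, Fbxw15, Fbxw16, Fbxw18, Fbxw19, Fbxw20, Fbxw24 and Fbxw28) were examined in the RNA of mouse oocytes and granulosa cells. These 10 genes were taken by name from the 55335 gene identifiers of each library. They had been chosen by measured FPKM values of these libraries, because their levels in oocytes stood above those in granulosa cells and, for Skp1a, because of the difference between the LRP1high and LRP1low groups of oocytes, so both of these differences are described and not tested.

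The libraries came from female ICR mice, an outbred strain. Young mice were 6 to 8 weeks old and Aged mice 18 months old. The remaining groups were Aged mice examined 3 weeks after human umbilical cord mesenchymal stem cells (UC-MSCs) had been placed under the ovarian capsule: Aged + Unsorted received the whole population, and Aged + LRP1high and Aged + LRP1low received cells sorted for much or little of the surface receptor LRP1. The labels name no genetic change in any group, and how many mice or cells went into a library is not given in the sources used here. The replicates are labelled as biological, and p-values measure the spread between these libraries. Oocytes, labelled as MII (arrested at metaphase of the second meiotic division), gave 3 Young, 2 Aged, 2 Aged + Unsorted, 3 Aged + LRP1high and 2 Aged + LRP1low libraries. Granulosa cells, the somatic cells around the oocyte, gave 1, 2, 1, 3 and 2 libraries of the same groups.

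SCF complexes are ubiquitin ligases, enzymes that tag proteins for destruction by the proteasome. Cullin 1 (Cul1) forms the scaffold, Rbx1 recruits the ubiquitin-carrying enzyme, and Skp1, encoded by Skp1a, is the adaptor that holds an interchangeable F-box protein, which in turn picks the substrate. Fbxw proteins are F-box proteins with WD40 repeats, a fold that binds substrates. SCF activity is needed for the passage of oocytes through meiosis, while the substrates of most of the 9 Fbxw genes examined here are not established.

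All 9 Fbxw genes lie on the minus strand of chromosome 9 in GRCm38, within chr9:109179227-109702700, a stretch of 523 kilobases. The annotation places 15 Fbxw genes in a wider stretch of 651 kilobases there, among 24 genes of all types, with 0 protein-coding genes from outside the family. Skp1a lies apart from them, at chr11:52231995-52246858 on the plus strand. The genes of the cluster are copies of each other: their longest transcripts shared 67.3% to 87.0% of aligned bases over 36 pairs, with a median of 81.3%. Fbxw14 and Fbxw28 were the hardest to tell apart. Of the 50-base words in the Fbxw14 transcript, 65.1% also occurred in Fbxw28, so reads may have been divided between this pair in a way that the deposited values do not show. The other 7 Fbxw genes shared 5.77% to 15.4% of such words with any other gene, and Skp1a shared 2.52%.

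RefSeq promoter windows in GRCm38.p6 were found for Skp1a (under its RefSeq symbol Skp1) and for 8 of the 9 Fbxw genes, Fbxw13 being the one without. The windows below hold the 250 bases before the annotated start, 5′ to 3′ on the gene's strand. Fbxw14 and Fbxw28 are shown as the most alike pair, Fbxw20 as the one with a single CAGCTG, and Skp1a for contrast. In the 3 Fbxw windows, capitals mark CAGCTG, one form of the E-box bound by basic helix-loop-helix factors, and a run of 12 bases that all 8 Fbxw windows have in common. In the Skp1a window, capitals mark CG dinucleotides.
Fbxw14 (chr9:109287677-109287926, minus strand): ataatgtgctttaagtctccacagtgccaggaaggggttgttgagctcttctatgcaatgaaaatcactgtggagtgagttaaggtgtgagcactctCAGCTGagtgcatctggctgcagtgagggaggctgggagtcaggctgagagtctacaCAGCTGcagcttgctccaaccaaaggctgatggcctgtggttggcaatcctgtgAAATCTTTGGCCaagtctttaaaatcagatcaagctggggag
Fbxw28 (chr9:109339660-109339909, minus strand): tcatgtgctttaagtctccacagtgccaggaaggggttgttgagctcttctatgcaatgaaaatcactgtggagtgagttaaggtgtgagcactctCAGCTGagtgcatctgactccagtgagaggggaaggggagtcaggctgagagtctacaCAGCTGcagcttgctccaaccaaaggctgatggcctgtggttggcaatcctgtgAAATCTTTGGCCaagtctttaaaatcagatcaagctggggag
Fbxw20 (chr9:109234755-109235004, minus strand): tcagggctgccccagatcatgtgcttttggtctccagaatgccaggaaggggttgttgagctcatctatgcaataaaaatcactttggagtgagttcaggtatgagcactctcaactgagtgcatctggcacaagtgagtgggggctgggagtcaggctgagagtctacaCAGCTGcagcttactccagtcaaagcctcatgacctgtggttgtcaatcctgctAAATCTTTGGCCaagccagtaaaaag
Skp1a (chr11:52231745-52231994, plus strand): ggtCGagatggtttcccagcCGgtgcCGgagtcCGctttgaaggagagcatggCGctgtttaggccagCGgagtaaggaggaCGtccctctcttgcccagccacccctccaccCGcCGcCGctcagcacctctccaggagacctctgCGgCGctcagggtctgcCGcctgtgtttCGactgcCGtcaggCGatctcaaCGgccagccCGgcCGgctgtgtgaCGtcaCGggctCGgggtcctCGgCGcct

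The shared run, AAATCTTTGGCC, was found in 4 further windows among 32851, which belong to Fbxw21, Fbxw26 and Olfr829. CAGCTG, which reads the same on both strands, occurred in 8 of 8 Fbxw windows and in 13.0% of all windows, and it did not occur in the Skp1a window. The wider E-box pattern CANNTG, of which CAGCTG is one form, was in 8 of 8 Fbxw windows and in 66.2% of all windows. TATAAA, searched on both strands, was in 0 of the 8 Fbxw windows and in 12.4% of all windows. The other patterns searched were TAATTA and TAATTG, each in 0 of the 8 and in 4.84% and 7.17% of all windows. CCAAT and GGGCGG were each in 1 of the 8, and in 33.8% and 32.7% of all windows. The windows of Fbxw14 and Fbxw28 were 96.4% identical. Over 28 Fbxw pairs identity ran from 60.7% to 96.4%, with a median of 80.2%, against 43.6% to 47.1% between Skp1a and the Fbxw genes. The Skp1a window held 68% G and C and 24 CG dinucleotides, and the Fbxw windows 47.6% to 52.4% and 0 to 4. Since the Fbxw windows are copies, these matches are not independent of each other, and a match is a description of letters and not of factor binding.

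Before the levels are given, 5 libraries need to be set apart by their oocyte markers. A list of 10 oocyte markers (the zona pellucida genes Zp1 to Zp3, the secreted factors Gdf9 and Bmp15, the maternal genes Ooep, Nlrp5 and Dppa3, H1foo and Oosp1) had a median FPKM (fragments scaled by gene length and library total) of 84.9 to 1001 in 8 of the 12 oocyte libraries. In the other 4 the median was 0.892 (Young 1), 11.6 (Aged 1), 5.02 (Aged + LRP1low 1) and 7.77 (Aged + LRP1low 2), and both libraries of the LRP1low group were thus poor in oocyte transcripts. Summed over the 10 markers, the 4 libraries held 11.4 to 166 FPKM and the 8 held 1340 to 14621, and 1 of the 10 markers was listed at 0 in each of Young 1 and Aged + LRP1low 2. The 10 granulosa markers summed to 51.1 and 55.7 in the LRP1low oocytes and to 0.259 to 94.9 in the other oocyte libraries. In the LRP1low oocytes, markers of further cell types summed to 38.8 and 33.4 FPKM (stromal), 23.95 and 22.0 (endothelial), 42.5 and 38.1 (immune) and 25.6 and 7.25 (red blood cell), and 2 of the red blood cell markers were at 0 in LRP1low 2. In the 8 rich libraries these sums reached at most 7.06, 10.1, 41.9 and 28.2, the last of these maxima and that of the immune markers both in Aged 2. Aged 1 held 32.6 FPKM of stromal, 23.98 of endothelial, 54.8 of immune and 0 of red blood cell markers. The LRP1low libraries were also the shallowest of the oocyte libraries (0.515 and 0.278 gigabases of aligned sequence, where the whole range was 0.278 to 3.40), yet they listed 47920 and 38934 genes at an FPKM of at least 1, against 3135 to 27970 in the remaining oocyte libraries. The fifth library is the granulosa Aged + Unsorted library. Its oocyte markers had a median of 799.7 FPKM and its granulosa markers one of 0.601, and it correlated at 0.968 over 21767 genes with oocyte Aged + Unsorted 2. The granulosa Aged libraries were low in both lists, with sums of 0.681 and 1.18 FPKM for the oocyte markers and of 1.13 and 1.17 for the granulosa markers. In bulk RNA, fewer oocytes in a library and less RNA of a gene per oocyte cannot be told apart.

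Skp1a, the adaptor, was among the most abundant transcripts of the oocyte. In Young oocytes its FPKM was 8.63, 27169 and 8353, and in Aged oocytes it was 159 and 1861. After transplantation it was 7533 and 2018 in Aged + Unsorted, 4318, 14349 and 4087 in Aged + LRP1high, and 4.96 and 7.71 in Aged + LRP1low. The low values were those of the 4 libraries poor in oocyte markers, and the remaining 8 ran from 1861 to 27169 with a median of 5925. Among all 55335 genes, Skp1a ranked between 2 and 37 in these 8 libraries.

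Of the Fbxw genes, Fbxw14 had the highest median in the 8 libraries rich in oocyte markers. It was at 1.84, 118 and 1354 FPKM in Young, 22.8 and 790 in Aged, and 1318 and 1424 in Aged + Unsorted. In Aged + LRP1high it was at 1151, 918 and 362, and in Aged + LRP1low at 3.68 and 3.75. Fbxw28, whose reads may be divided with those of Fbxw14, was at 2.38, 30.0, 3.14 and 1.52 in the 4 poor libraries (Young 1, Aged 1, Aged + LRP1low 1 and 2) and at 306.8 to 1394 in the 8 rich ones.

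Fbxw24 was at 1.41, 230 and 1277 FPKM in Young and at 40.8 and 651 in Aged oocytes. After transplantation it was at 445 and 1104 in Aged + Unsorted and at 1217, 792 and 409 in Aged + LRP1high. In Aged + LRP1low it was at 2.68 and listed at 0. Fbxw15, Fbxw16, Fbxw18 and Fbxw19 formed a middle tier, with medians of 324, 396, 331 and 299.5 FPKM in the 8 rich libraries. Fbxw20 had a median of 186, and Fbxw13, at the edge of the 9-gene stretch, one of 52.0. The ranges of neighbours in this order overlapped throughout, from 118 to 1424 for Fbxw14 down to 2.11 to 131 for Fbxw13.

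**Figure D1:**
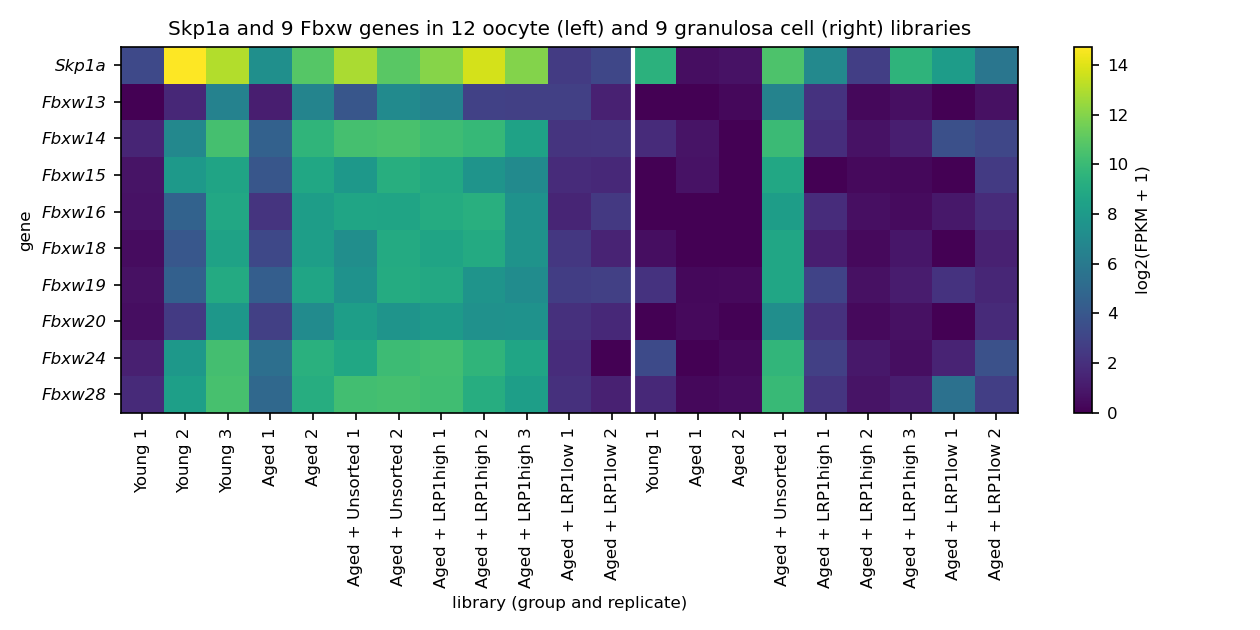
Levels of Skp1a and the 9 Fbxw genes (rows) in 21 libraries (columns, 12 of oocytes left of the white line and 9 of granulosa cells right of it), as log2(FPKM + 1). The 4 dark oocyte columns are Young 1, Aged 1 and both Aged + LRP1low libraries, and the bright granulosa column is Aged + Unsorted 1, where the 9 Fbxw genes summed to 4703 FPKM.

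**Figure D2:**
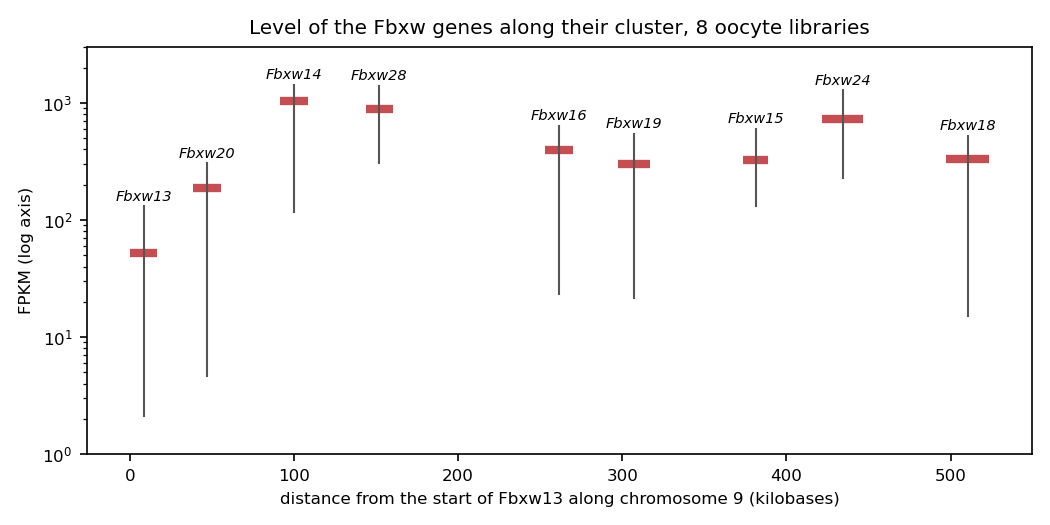
Levels of the 9 Fbxw genes along chromosome 9 in the 8 oocyte libraries rich in oocyte markers. Each red bar spans a gene from its start to its end (x, kilobases from the start of Fbxw13) at its median FPKM (y, log axis), and the grey line runs from the lowest to the highest library. Fbxw13 and Fbxw20, at the left edge, had the lowest medians, 52.0 and 186, and Fbxw14 the highest.

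The order of the Fbxw genes was similar in most of the rich libraries, although their amounts differed. The summed FPKM of the 9 genes was 983 to 6245 in the 8 rich libraries and 8.36 to 147 in the 4 poor ones. Fbxw14, Fbxw24 and Fbxw28 were the 3 most abundant in 6 of the 8 rich libraries, and Fbxw13 was last in 8 of 8. The first 3 genes together made up 54.9% to 81.2% of the sum. Fbxw14 took 11.99% to 30.8%, Fbxw28 14.4% to 32.0% and Fbxw24 10.4% to 23.4%. The 2 exceptions were Young 2, where Fbxw15 ranked second and reached 25.8% of the sum, and Aged + LRP1high 2, where Fbxw16, with 15.8%, ranked above Fbxw28. In the 2 Aged + LRP1low libraries, where single genes were at 0 to 6.04 FPKM, the order was different, with Fbxw13 first in 1 and Fbxw19 first in the other.

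The proportion of Skp1a to the Fbxw genes differed between libraries. Its FPKM divided by the Fbxw sum ran from 0.323 in Aged + Unsorted 2 to 27.6 in Young 2 over the 8 rich libraries, with a median of 1.57. On the log2 scale the mean of the 9 Fbxw genes differed from the mean of the 10 oocyte markers by −1.20 to −0.37 in these libraries, where a mean of 9 genes varies less than a single gene. The single Fbxw genes had a distance from highest to lowest of 0.93 (Fbxw14) to 3.73 (Fbxw13), with a median of 2.03. Skp1a lay above the markers by 0.96 to 8.30, a distance of 7.34. In FPKM itself, the highest of the 8 libraries held 14.6 times the lowest for Skp1a, 12.1 times for Fbxw14 and 64.7 times for Fbxw20. Aged 2 and Aged + Unsorted 2 had the smallest excess of Skp1a over the markers (1.52 and 0.96), and Young 2 and Aged + LRP1high 2 the largest (8.30 and 4.55). In the poor libraries Skp1a was 2.25 (Young 1) and 3.72 (Aged 1) above the markers, and its difference from them was 0.05 and −0.21 in the LRP1low libraries.

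Within the 8 rich libraries the mean of the Fbxw genes followed the markers with Pearson r = 0.968 and Spearman rho = 0.952, as a description over libraries that share normalization. Without LRP1high 3 and Young 2, the libraries with the most distant Fbxw values, r was 0.674 and rho 0.886. Skp1a went the other way in these 8, with r = −0.628 and rho = −0.595 to the markers. Without Aged 2 and Young 2, r was −0.145 and rho −0.257, so this relation of Skp1a rested on Aged 2 and Young 2. Over all 12 oocyte libraries, Skp1a had r = 0.863 and rho = 0.510 to the markers, and the Fbxw mean r = 0.989 and rho = 0.979. Among the 36 pairs of Fbxw genes the median r was 0.794, from 0.153 for Fbxw15 with Fbxw20 to 0.943 for Fbxw16 with Fbxw18.

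**Figure D3:**
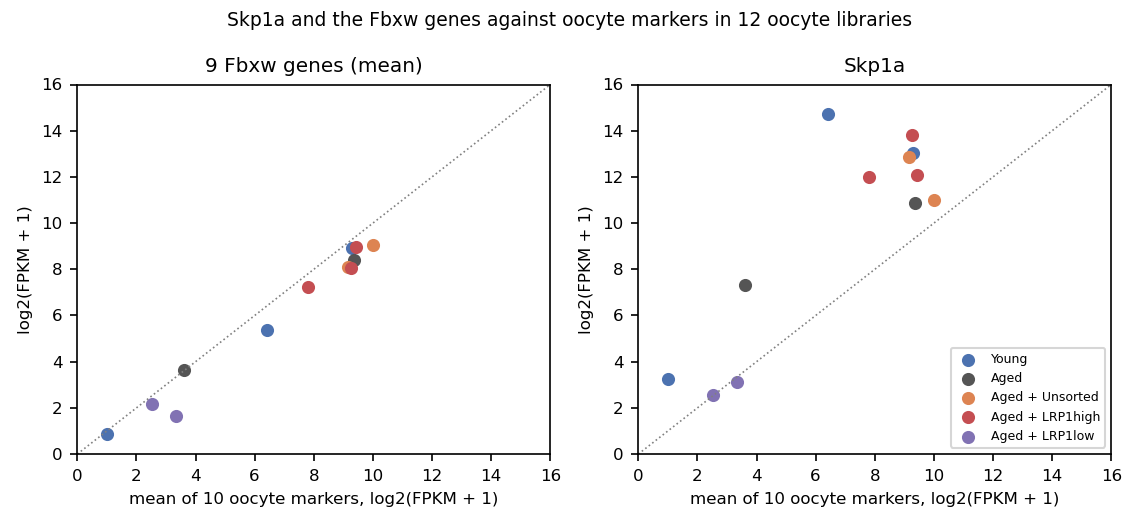
Mean of the 9 Fbxw genes (left) and Skp1a (right) against the mean of 10 oocyte markers in 12 oocyte libraries, all as log2(FPKM + 1), colored by group, with a dotted line of equality. Relative to the line the Fbxw points lie between −1.66 (Aged + LRP1low 2) and 0.029 (Aged 1), and the Skp1a points between −0.21 and 8.30.

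The genes most like Skp1a over the 12 oocyte libraries, among 4056 with a mean FPKM of at least 10, were Sephs2 (selenophosphate synthesis, r = 0.989), Taf7 (a subunit of the general transcription factor TFIID, 0.979), Pced1b (0.979), Paip1 (a partner of poly(A)-binding protein, 0.979) and Wtap (a subunit of the RNA adenosine methylation complex, 0.977). Within the 8 rich libraries these 5 had r between 0.813 and 0.952 with Skp1a. Most like the Fbxw mean were H1foo (the oocyte linker histone, 0.997, itself one of the 10 markers), E330021D16Rik (0.992), Gm8797 (0.991), Oog3 (an oocyte-expressed leucine-rich repeat gene, 0.991) and Pttg1 (securin, 0.991), with r between 0.933 and 0.991 in the 8.

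In granulosa cells, the summed FPKM of the Fbxw genes was 1.301 to 61.5 in 8 libraries, highest in the Aged + LRP1low ones at 61.5 and 38.8, and 4703 in Aged + Unsorted 1, in which the levels of the 10 genes were 0.717 to 0.792 times those of oocyte Aged + Unsorted 2. Skp1a was at 705 FPKM in Young, 0.466 and 0.669 in Aged, 1538 in Aged + Unsorted, 121, 5.64 and 768 in Aged + LRP1high, and 280 and 54.5 in Aged + LRP1low. Outside Aged + Unsorted, granulosa levels of Skp1a and of the Fbxw sum overlapped those of the poor oocyte libraries, where Skp1a was at 4.96 to 159 FPKM and the Fbxw sum at 8.36 to 147.

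The first question of the design was what age changes. With limma on log2(FPKM + 1), with all 12 oocyte libraries in one model, 0 of the 10 genes passed the call (a fold change over 1.5 and a Benjamini-Hochberg adjusted p under 0.05) for Aged against Young, where 0.0964% of 28004 genes were called. At an unadjusted limma p under 0.05 there were 0 of the 10 here, beside 8.65% of all genes. The count was also 0 for Aged + Unsorted against Aged, beside 8.74%, and for Aged + LRP1high against Aged, beside 10.9%. For Aged + LRP1high against Aged + Unsorted it was 0 beside 2.79%. Skp1a differed by −1.25 on the log2 scale (SE 2.62, limma adjusted p = 0.822, n = 2 and 3) and Fbxw14 by 0.83 (SE 2.10, adjusted p = 0.856). The range of Young enclosed that of Aged for Skp1a, and for each of the 10 genes the groups overlapped, where 11% of all genes were higher and 0.646% lower without overlap. The median of the 9 Fbxw genes was 0.89, beside 0.94 for all genes tested. Either sign was possible for Skp1a when 1 library was left out, from −4.79 without Young 1 to 0.94 without Young 2.

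The second question was how oocytes of each transplanted group differed from Aged ones, in 3 comparisons that share the same 2 Aged libraries. For Aged + Unsorted against Aged, 0 of 10 genes were called and 0% of all genes. All 10 had higher means, and 5 of them (Skp1a, Fbxw14, Fbxw16, Fbxw20 and Fbxw28) were higher in both Unsorted libraries than in both Aged ones, beside 10.3% of all genes tested. Skp1a differed by 2.84 (SE 2.87, limma adjusted p = 0.567) and Fbxw14 by 3.32 (SE 2.30, adjusted p = 0.441). The Fbxw median was 2.44 and that of all genes −0.86. Aged 1, one of the 2 control libraries, was poor in oocyte markers. Without Aged 1 and Young 1 the Fbxw median was 0.11.

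For Aged + LRP1high against Aged, 0 of 10 genes were called, beside 0.771% of all genes. Skp1a was 3.54 higher (SE 2.62, limma adjusted p = 0.421, n = 3 and 2), and its 3 LRP1high values, the lowest at 4087, stood above both Aged values. Fbxw20 was the other gene without overlap, at 259, 177 and 178 FPKM against 5.97 and 136, a difference of 2.71 (SE 1.78, adjusted p = 0.383). These 2 of 10 stand beside 3.85% of all genes that were higher without overlap. The Fbxw median was 2.15 and that of all genes −1.05, and without Aged 1 and Young 1 the Fbxw median was 0.04, with Skp1a at 1.76 (adjusted p = 0.803).

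For Aged + LRP1low against Aged, all 10 genes had lower means and 0 were called, beside 3.17% of all genes. Skp1a differed by −6.24 (SE 2.87) and Fbxw24 by −6.43 (SE 2.32, limma adjusted p = 0.200). The LRP1high and LRP1low values of Skp1a had a part in its choice, so its tests against these groups are not independent of that choice. By the unadjusted p under 0.05, 2 genes, Fbxw24 and Fbxw28, were lower, beside 0.953% of all genes. The Fbxw median was −3.78 and that of all genes 0.68. Skp1a and 7 Fbxw genes, that is 8 of 10, were lower in both LRP1low libraries than in both Aged ones, beside 9.55% of all genes tested. With Young 1 and Aged 1 left out, a choice made after seeing the data, 8 of 10 genes were called lower, beside 5.08% of 22380 genes. That fit drops an Aged library poor in oocyte markers while both LRP1low libraries, also poor in them, stay in. It rests on the single library Aged 2, whose spread is assumed to be that of the other groups, so its count gives no further evidence of a difference. The LRP1low libraries held 53.0 and 166 FPKM of summed oocyte markers against 153 and 9051 in Aged. A fit with the marker level as a covariate gave a Fbxw median of −0.61. Over the 12 oocyte libraries the Fbxw mean followed the markers with r = 0.989, so this fit cannot tell marker content from group. The LRP1low libraries also held the stromal, endothelial, immune and red blood cell transcripts given above, and their part in the difference was not tested. By the median of each list, LRP1low 1 held 5.02 FPKM of oocyte, 5.85 of granulosa and 6.04 of stromal markers. Its immune, red blood cell and endothelial medians were 4.98, 3.65 and 6.54. In LRP1low 2 the 6 medians were 7.77, 3.83, 4.30, 3.20, 1.68 and 5.92 in the same order. Skp1a, at 4.96 and 7.71, was near these levels. Whether they are cell transcripts or background was not tested.

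**Figure D4:**
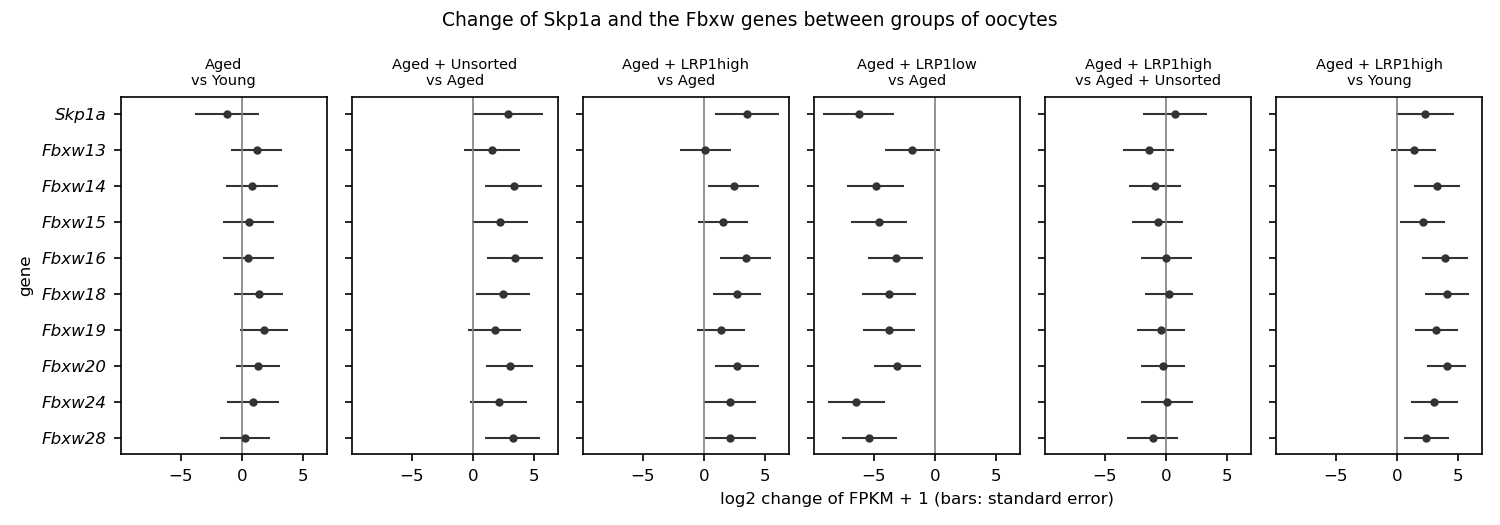
Difference between oocyte groups for Skp1a and the 9 Fbxw genes (rows) on the log2(FPKM + 1) scale (x), with 1 standard error as bars, in 6 panels of 1 comparison each. The LRP1low panel lies left of 0, with Skp1a at −6.24 and Fbxw24 at −6.43, and none of the values passed the call.

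The third question was how the LRP1high group compared with the others. Against Aged + Unsorted, 0 of 10 genes were called and 0% of all genes. Skp1a differed by 0.70 (SE 2.62, limma adjusted p = 1) and the Fbxw median was −0.39, with that of all genes at 0. Fbxw14 and Fbxw28, the pair with shared sequence, were lower in the 3 LRP1high libraries than in the 2 Unsorted ones, beside 8.48% of all genes. Against Young, 0 of 10 were called and 0% of all genes. Skp1a differed by 2.29 (SE 2.34, limma adjusted p = 1) and the Fbxw median was 3.20, beside −0.14 for all genes. Fbxw18 and Fbxw20 had an unadjusted p under 0.05, beside 2.96% of genes that did so with a higher level, and the ranges of each of the 10 genes overlapped. Without Young 1, Skp1a was at −1.25 and the Fbxw median at 0.86. Without Young 3, 1 of the 10 genes, Fbxw20, was called higher, beside 0.7% of the genes then tested. The Young libraries then left, Young 1 and Young 2, had oocyte marker medians of 0.892 and 84.9 FPKM, against 595 in Young 3. Fbxw20 was at 0.454 and 4.69 FPKM in them. The LRP1high and LRP1low groups of oocytes are described only. Skp1a was 9.78 higher on the log2 scale in LRP1high, Fbxw24 8.58 and Fbxw14 7.27, and Fbxw13 had the smallest difference, 1.97, with overlapping ranges.

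In granulosa cells, 0 of 10 genes were called for Aged + LRP1high against Aged, for Aged + LRP1low against Aged and between LRP1high and LRP1low, beside 0% of 13002 genes in each. Skp1a was 5.77 higher in LRP1high than in Aged (SE 1.97, limma adjusted p = 0.458) and 6.32 higher in LRP1low (SE 2.16, adjusted p = 0.904). Summed granulosa markers were at 54.0, 4.80 and 570 FPKM in LRP1high, 88.3 and 6.17 in LRP1low, and 1.13 and 1.17 in Aged. In each treated group, the library lowest in these markers was also lowest in Skp1a, at 5.64 FPKM (LRP1high 2) and 54.5 (LRP1low 2). The part of marker content in these differences was not tested. By the unadjusted p under 0.05, Skp1a was higher in LRP1high, beside 7.99% of all genes, and Skp1a, Fbxw14 and Fbxw28 in LRP1low, beside 3.05%. Without LRP1low 2, Fbxw28 was called higher, beside 5.57% of the genes then tested. Both differences of Skp1a were free of overlap, as were 50.4% and 30.5% of all genes in the same direction, and the 2 Aged libraries listed 2734 and 2089 genes at an FPKM of at least 1, the fewest of all libraries. Between LRP1high and LRP1low, Skp1a differed by −0.55 (SE 1.97, adjusted p = 0.898). Fbxw14 was at 2.85, 0.627 and 1.34 FPKM in LRP1high and at 11.1 and 7.91 in LRP1low, a difference of −2.09 (SE 0.51, adjusted p = 0.629), and Fbxw28 was at 3.77, 0.722 and 1.25 against 44.1 and 5.74. Both were lower without overlap, beside 2.28% of all genes, and both had an unadjusted p under 0.05, beside 1.01%. Reads may have been divided between these 2 genes, so they may not be 2 separate results. The oocyte markers summed to 38.0, 5.46 and 8.19 FPKM in these LRP1high libraries and to 19.5 and 41.9 in the LRP1low ones. The part of oocyte RNA in this difference was not tested. All 10 genes passed the filter on low values in granulosa cells. Without the Aged + Unsorted library 5 did, and Fbxw13, Fbxw15, Fbxw16, Fbxw18 and Fbxw20 did not.

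The rest of the SCF machinery was lower in amount than Skp1a. In the 8 rich oocyte libraries Cul1, the scaffold, had a median of 153 FPKM (23.4 to 338) and Rbx1, the RING subunit, one of 176 (59.9 to 374), against 5925 for Skp1a. Btrc, the F-box protein of beta-catenin destruction, had a median of 53.0, and Fbxw7, which directs cyclin E to destruction, one of 6.68. Fbxo5 (Emi1) and Fbxo43 (Emi2), inhibitors of the anaphase-promoting complex of which Fbxo43 holds the MII arrest, had medians of 95.6 and 21.4. Other Fbxw genes of the same cluster were also present there, with medians of 330 for Fbxw21, 266 for Fbxw27, 177 for Fbxw26, 148 for Fbxw22 and 115 for Fbxw25, while Fbxw4, which lies outside the cluster, had 19.4.

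None of these pathway genes was called by limma in any of the 9 comparisons. The lists held 24 genes of the SCF core and its regulators, 12 F-box genes with known substrates and 13 further Fbxw genes, of which 24, 12 and 12 were tested in oocytes and 23, 12 and 10 in granulosa cells. Counts at an unadjusted p under 0.05 follow for the core, F-box and further Fbxw lists, with the share of all genes tested in brackets. In oocytes they were 1, 1 and 1 for Aged against Young (8.65%). Against Aged they were 2, 1 and 1 for Unsorted (8.74%), 2, 1 and 1 for LRP1high (10.9%) and 2, 0 and 2 for LRP1low (14.1%). For LRP1high they were 2, 0 and 0 against Unsorted (2.79%) and 4, 2 and 2 against Young (3.17%). In granulosa cells they were 6, 2 and 1 for LRP1high against Aged (8.51%) and 1, 0 and 0 for LRP1low against Aged (3.79%). Between granulosa LRP1high and LRP1low they were 3, 0 and 0 (5.15%). In Aged + LRP1low against Aged in oocytes, 10 of the 24 core genes were lower without overlap, beside 9.55% of all genes, and 3 (Cops7a, Cand2 and Rnf7) were higher, beside 27.1%. The core median was −1.68 and that of all genes 0.68. The other lists moved less. Of 12 F-box genes, 3 were lower and 2 higher without overlap, with a median of −0.86. Of 12 further Fbxw genes, 1 was lower and 2 were higher, with a median of −0.48. In Aged + Unsorted against Aged, 10 of 24 were higher without overlap, beside 10.3% of all genes, and 2 (Uba3 and Cand2) were lower, beside 11.3%, with a core median of 1.63 against −0.86 for all genes. In Aged + LRP1high against Aged, 6 of 24 were higher, beside 3.85%, and Cand2 was lower, beside 12.4%, with a core median of 0.87 against −1.05. For Unsorted, 5 F-box and 3 further Fbxw genes were higher without overlap and 1 and 2 lower, with medians of 0.99 and 0.41. For LRP1high, 1 and 4 were higher and 2 and 1 lower, with medians of 0.58 and 0.40. These 3 comparisons share the 2 Aged libraries, of which Aged 1 was poor in oocyte markers. The genes named in these counts were chosen after their values were seen.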

How the data were processed

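The 21 mouse libraries (12 oocyte, 9 granulosa) were grouped by their labels. The authors aligned reads with HISAT2 2.2.1 and computed gene values with StringTie 1.3.3b, per the labels, and deposited coverage, FPKM (the unit tested here) and TPM. No counts were used. The labels name a stranded kit and the methods Smart-seq2, so use of strand is not known. The submitters' processing notes name mm9, but 54587 of 55335 identifiers carry GRCm38 (GENCODE M21) coordinates. FPKM was summed over 4 to 21 repeated identifiers per file.

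Values were tested as log2(FPKM + 1), which understates changes of low genes, keeping genes whose mean FPKM in a cell type reached 1 (28004 and 13002), with limma 3.58.1 in R 4.3.3, in one model for each cell type. Depth was the median ratio of the deposited coverage signal to FPKM over 21693 single-exon genes: 0.278 to 3.40 gigabases in oocytes and 0.335 to 1.49 in granulosa cells. Oocyte libraries were described as rich in oocyte markers at a median of at least 50 FPKM. Promoters (RefSeq) were aligned with mafft 7.526. The model was tested on simulated data. The genes named are the 10, Cul1, Rbx1, Btrc, Fbxw7, Fbxo5, Fbxo43, other listed Fbxw genes with an oocyte mean of at least 10 FPKM, and the 5 most alike in pattern. The members and lists were chosen with earlier results of these data known. Alternatives were another pseudocount (0.1), other filters, quantile normalization, TPM, a trend, a replicate block, a marker covariate and leaving out libraries.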

Additional observations from a re-analysis of the deposited data

Results flagged for a closer look

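Skp1a and the 9 Fbxw genes gave 20 pairs of a gene and a comparison that was made in both cell types, and 5 of the 20 were set apart. Between Aged + LRP1low and Aged, 5 genes differed in opposite directions in the 2 cell types, with both LRP1low libraries below both Aged ones in oocytes and above them in granulosa cells. The oocyte change minus the granulosa change, on the log2 scale, was −12.56 for Skp1a, −7.86 for Fbxw14, −5.32 for Fbxw19, −8.81 for Fbxw24 and −9.09 for Fbxw28. Of the 11783 genes tested in both cell types, 7.16% did the same. These differences between cell types were not tested. The LRP1low oocyte libraries were poor in oocyte markers and the granulosa Aged libraries listed the fewest genes.

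The granulosa Aged + Unsorted library entered no comparison. Its summed Fbxw FPKM was 4703, against at most 61.5 in the other granulosa libraries, and its Skp1a was at 1538, against at most 768.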

How the results depend on the processing

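The count of called genes was 0 under each alternative tried, with 3 exceptions. With libraries left out one at a time it ranged from 0 to 1 for Aged + LRP1high against Young in oocytes, where Fbxw20 was called at 6.14 (limma adjusted p = 0.0454) without Young 3, and from 0 to 1 for Aged + LRP1low against Aged in granulosa cells, where Fbxw28 was called at 5.08 (adjusted p = 0.0338) without LRP1low 2. Genes called in the same direction made up 0.7% and 5.57% of those tested. It was 8 for Aged + LRP1low against Aged in oocytes without Young 1 and Aged 1 together, an alternative added after seeing the data, as was the granulosa fit without Aged + Unsorted. The cause was not tested. Directions reversed as follows, in log2 units. For Aged against Young, Skp1a was at 0.94, 0.09 and 0.52 without Young 2, Young 3 and Aged 1, with a range of −4.79 to 0.94, and Fbxw14 was at −0.051 with the marker level as a covariate, −1.55 without Young 1 and −1.69 without Aged 2, with a range up to 3.36. With that covariate Skp1a was at −0.40 for Aged + Unsorted against Aged and at −1.10 for Aged + LRP1high against Young, where it was −1.25 without Young 1, alone or with Aged 1, and ranged up to 4.48. Against Aged + Unsorted, Skp1a in LRP1high was at −0.25 without Unsorted 2 and up to 1.65. Fbxw14 for LRP1high against Aged was at −0.12 without Aged 1, alone or with Young 1, and up to 4.93. In granulosa cells, Skp1a for LRP1high against LRP1low was at 1.00 with quantile normalization, 1.296 without LRP1high 2 and 0.62 without LRP1low 1, and as low as −2.13.

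For libraries with the same replicate number, deviations from the group means correlated at −0.436 to 0.441 in oocytes and −0.076 to 0.256 in granulosa cells. In a group of 2 libraries the deviations are mirror images of each other. This check therefore cannot decide whether the numbers pair the libraries. With a replicate block the count of called genes was 0 in each of the 9 comparisons, with Skp1a at −0.74 for Aged against Young. With 2 or 3 libraries per group, standard errors were 1.59 to 2.87 for the 10 genes in oocytes. Differences as large as −6.43 (Fbxw24, Aged + LRP1low against Aged) were not called, so differences of several log2 units could not be resolved.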
